A study of Mus musculus with 6 samples.

Results

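Granulocytes with little microglial RNA were 59 of the 39642 cell barcodes that passed the limits on genes and mitochondrial RNA, or 0.149% (exact binomial 95% interval 0.113 to 0.192%). They were chosen by their own counts: more than 200 genes, under 5% of unique molecular identifiers (UMIs, each standing for 1 captured RNA molecule) on mitochondrial genes, at least 10 UMIs on S100a8 and S100a9 together, and under 3% of UMIs on Cst3, C1qa, C1qb, C1qc, P2ry12 and Tmem119. The other 39583 passing barcodes, mostly microglia by these 6 genes, were the background for every comparison. Another 76 barcodes met the S100 limit but carried 3% or more microglial UMIs, and are called the high-microglial barcodes.

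The immune cells came from female SCID mice, which lack functional T and B cells, aged 6 to 8 weeks in the labels. Each mouse received 50000 cells of the human glioma line U87 in the brain. In the IL33 group (3 mice, taken at 3 weeks) the tumour cells expressed interleukin-33, and in the pcDNA group (3 mice, taken at 6 weeks) they carried the empty pcDNA 3.1 vector. CD45+ cells of the tumour-bearing hemisphere were sorted after a Percoll step and profiled with 10x Genomics 3′ chemistry. All 6 libraries lie in 1 matrix of 40411 barcodes and 105560763 UMIs whose barcode suffixes, 1 to 6, are tied to no mouse by the labels or the deposited files. The number of barcodes in each suffix equals the cell number that the study lists for a library, but groups were taken only from the labels, and this match was not used to assign them. The matrix was therefore treated as 1 sample, no tumour group was compared with the other, and no p-value is given. Intervals below cover counting error only, and the suffixes were not used as replicates of a condition.

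Neutrophils, the most common granulocytes, make their granule proteins in sequence while they mature in the bone marrow. Proteases of the primary (azurophil) granules come first, proteins of the secondary (specific) granules such as lactoferrin and cathelicidin follow, and gelatinase of the tertiary granules comes later. Mature cells leave the marrow carrying the chemokine receptor CXCR2, and at sites of inflammation they transcribe interleukin-1β and chemokines. S100A8 and S100A9 together form calprotectin, an abundant cytosolic protein of these cells.

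Ngp, Camp, Ltf and Retnlg are 4 of the 6 genes by which maturation was read here, and the stretches before their transcription starts are shown because the levels of Ngp, Camp and Ltf ran together among the barcodes. Ngp (neutrophilic granule protein), Camp (cathelicidin) and Ltf (lactoferrin) lie within 1195389 bases of each other on chromosome 9, and Retnlg (resistin-like gamma) lies on chromosome 16. The sequences are from RefSeq (GRCm38.p6), 5′ to 3′ on the strand of the gene, and stop where GENCODE vM21 places the start of transcription further upstream. Capitals mark matches to a C/EBP motif (TTNNGNAA, or TTNCNNAA on the other strand) or a PU.1 motif (GAGGAA, or TTCCTC on the other strand), and no matches of the motifs overlapped. They cover chr9:110419558-110419746 (plus strand) for Ngp, chr9:109849618-109849706 (minus strand) for Camp, chr9:111019042-111019270 (plus strand) for Ltf and chr16:48872358-48872607 (plus strand) for Retnlg.
Ngp: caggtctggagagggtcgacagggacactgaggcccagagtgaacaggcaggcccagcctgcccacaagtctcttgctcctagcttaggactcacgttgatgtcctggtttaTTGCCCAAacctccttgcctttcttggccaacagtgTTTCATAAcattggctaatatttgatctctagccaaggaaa
Camp: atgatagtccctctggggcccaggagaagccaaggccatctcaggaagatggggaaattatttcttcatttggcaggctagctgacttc
Ltf: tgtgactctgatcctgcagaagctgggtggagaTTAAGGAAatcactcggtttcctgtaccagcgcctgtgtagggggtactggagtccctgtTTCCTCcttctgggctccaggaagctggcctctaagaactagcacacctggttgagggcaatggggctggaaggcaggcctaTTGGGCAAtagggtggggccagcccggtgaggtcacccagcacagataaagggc
Retnlg: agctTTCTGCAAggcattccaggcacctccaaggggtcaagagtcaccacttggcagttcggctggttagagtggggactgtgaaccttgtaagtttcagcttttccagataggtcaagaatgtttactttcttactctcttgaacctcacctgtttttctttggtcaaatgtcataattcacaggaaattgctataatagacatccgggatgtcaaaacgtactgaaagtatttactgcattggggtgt
Over the whole 250 bases before the RefSeq start, the C/EBP motif matched 3 times for Ngp, 2 times for Ltf and 1 time for Retnlg, and these letters were not in the window of Camp. The PU.1 motif matched 1 time for Ltf. Among 32851 RefSeq promoter windows of the same length, 36.8% held the C/EBP motif and 23.3% the PU.1 motif, so a match is a description of the letters and no more.

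Members were shallow. Their median was 878 UMIs (526 to 11737) and 438 genes, beside a median of 2474 UMIs over the other barcodes and 5626.5 UMIs over the high-microglial barcodes. S100a8 and S100a9 made up a median of 11.2% of a member's UMIs (0.289 to 40.2%), while 98.3% of all passing barcodes had 0 UMIs of either gene, 523 had 1 and 27 had 2 to 9. The limit of 10 UMIs therefore fell where few barcodes lie: the lowest members had 10, 10 and 13 UMIs, and the nearest barcodes below had 9, 8 and 3. The microglial limit cut a more continuous range, with 2.91, 2.55 and 2.42% just inside and 3.11, 3.15 and 3.22% just outside, although the median member had 0.353%. The median of the other barcodes was 8.32%. These values chose the members and support nothing further.

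**Figure D1:**
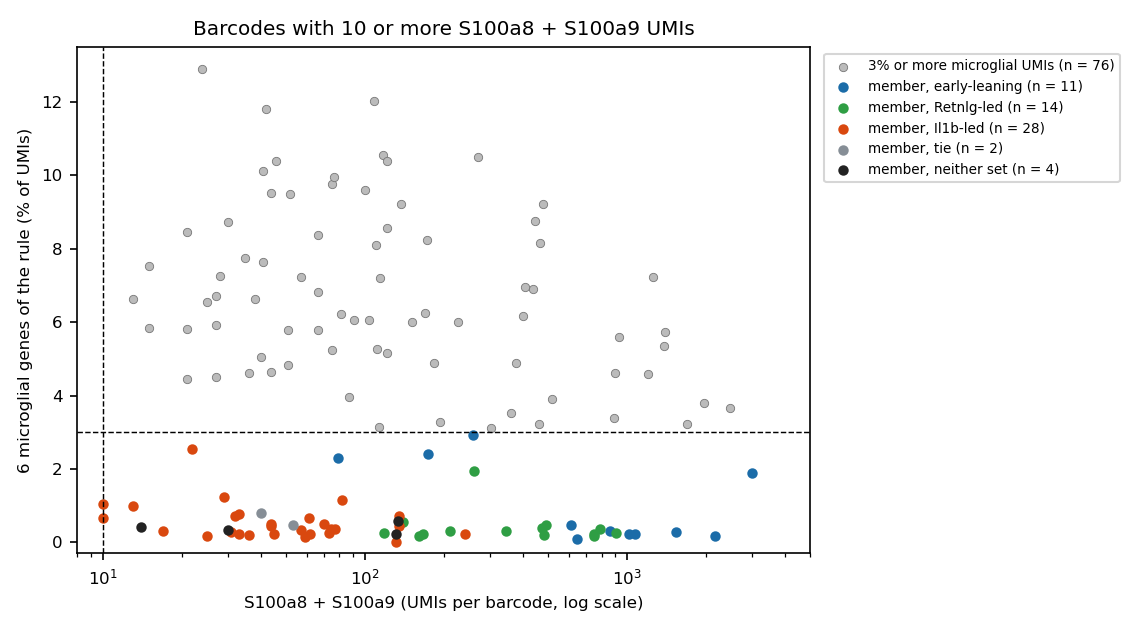
Barcodes with 10 or more S100a8 and S100a9 UMIs, 1 point each, by those UMIs (x, log scale) and by the percent of UMIs on the 6 microglial genes of the rule (y); dashed lines are the limits, colours are the classes of members described in the text and grey points are the 76 high-microglial barcodes. The median member lies at 0.353% and the highest at 2.91%.

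All 6 suffixes held members, 3, 17, 4, 14, 4 and 17 in the order of the suffixes, of 7771, 10117, 2834, 6238, 6579 and 6103 passing barcodes. The share ranged from 0.0386% (0.00796 to 0.113%) in suffix 1 to 0.279% (0.162 to 0.446%) in suffix 6. Libraries also shared barcode sequences: 3890 sequences occurred in 2 or more suffixes and 490 in all 6, so that 36.4% of the barcodes carried a sequence seen elsewhere. Among the members 7 did. For 4 of them the copy in another suffix had 0 S100 UMIs, but the other 3, in suffixes 1, 3 and 6, carried the same sequence, which occurred in all 6 suffixes with like contents. Its 6 copies gave 11.4 to 12.8% of their UMIs to Ngp, Camp and Ltf and 2.29 to 3.53% to the 6 microglial genes. Whether these copies were 1 cell was not tested, and values are given without shared sequences where they changed.

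Across genes, members differed widely from the other barcodes. UMIs were summed over barcodes and each sum was scaled to the same total as CPM, so that 1 UMI over all members was 10.7 CPM. Of 4263 genes with a mean of at least 25 CPM over both sums, 18.3% (781 genes) were at least 2-fold higher in the members, 34.3% (1461 genes) were at least 2-fold lower, and the median log2 ratio was -0.50. Which direction held more genes depended on the processing. After thinning each barcode to 500 UMIs, 1048 genes were higher and 680 lower. With no microglial limit the counts were 289 and 154. A gene that is low elsewhere enters this set only through its level in the members, and the rule used the same contrast, so the counts by gene list below are descriptions and nothing is read from their share above the background.

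The 20 genes with the highest ratios among those of at least 200 CPM, higher in each suffix with 10 or more members, were led by Asprv1 (a retroviral-like aspartic protease), which was at 460 CPM in the members and 0.144 CPM in the others. Next came the stefin genes BC100530 and Gm5483, cysteine protease inhibitor genes with near-identical copies, whose reads may be split among them. Of the 70 BC100530 UMIs, 42 came from early-leaning members (defined below), all in 1 barcode, the deepest of all, and without it the gene was at 343 CPM in place of 749 CPM. AC110211.1, Wfdc21, Retnlg, Steap4, S100a9, S100a8, Ly6g, Mrgpra2b, Lcn2, Ngp, G0s2, Mmp9, Fpr2, Mmp8, Cxcr2, AA467197 and Hdc completed the set. Ly6g, which encodes the surface protein used to sort mouse neutrophils, was 879-fold higher (670 to 1152), at 1070 CPM against 1.22 CPM. Across the alternatives run its ratio ranged from 410 to 22227.5, so the interval understates how far it can move. Cxcr2, the receptor for the chemokines CXCL1 and CXCL2, was at 664 CPM against 1.64 CPM, and Hdc, the enzyme that makes histamine, at 567 CPM against 1.57 CPM.

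At the other end were Siglech, Abhd12, Rgs1, Fgd2, Fosb, Daglb, Ttr, Fscn1, Adap2 and Fcrls, most of them known from microglia. Siglech was at 10.7 CPM, a single UMI, in the members and at 742 CPM in the others (ratio 0.0144, 0.000365 to 0.0804). Rgs1, a regulator of G protein signalling, had 2 UMIs in the members and stood at 1060 CPM in the others. Ttr (transthyretin, made by the choroid plexus) was at 53.5 CPM against 1701 CPM.

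The granule genes were ordered by granule class. Of the 6 primary granule genes, Mpo, Elane and Ctsg had 0 UMIs over all members, which allows up to 3 UMIs, or 32.1 CPM. Prtn3 (proteinase 3) was the only gene of that list that could be tested and was higher, from 5 UMIs, of which 4 lay in the 4 members with none of the maturation genes described below and 1 in an early-leaning member. Ms4a3 had 3 UMIs and Prss57 had 1. The secondary granule list stood in contrast: 10 of its 10 tested genes were higher, with a median log2 ratio of 9.52, and Itgb2l, with 3 UMIs, was not tested. Lcn2 (lipocalin 2, which binds bacterial siderophores) was at 5823 CPM against 7.36 CPM, and Cd177, a neutrophil surface protein, at 525 CPM against 2.68 CPM. Olfm4 was at 589 CPM but came from 6 of the 59 members. Of the 6 genes of the tertiary granule list 5 were higher. Among them were Mmp8 (neutrophil collagenase, 824 CPM against 1.95 CPM) and Hp (haptoglobin, 2655 CPM against 12.8 CPM). The products of Mmp8 and Hp are also assigned to secondary granules, so the list name is a label and not limited to tertiary granules. Itgam, the integrin chain CD11b that microglia also carry, was at 182 CPM against 322 CPM and passed neither limit.

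Effector genes outside the granules varied more. Of 6 NADPH oxidase genes, whose products make superoxide, Cybb, Cyba, Ncf4 and Rac2 were higher, whereas Ncf1 (235 CPM against 205 CPM) passed neither limit. All 6 S100 genes listed were higher, of which S100a8 and S100a9 were set by the rule. S100a11 was found in 55 of 59 members. S100a4 (5 UMIs) and S100a10 (6 UMIs) had 0 UMIs in the early-leaning, Retnlg-led and Il1b-led classes described below, so that their UMIs came from the other 6 members. The 9 secreted antimicrobial genes were higher, among them Lyz2 (lysozyme, 10747 CPM against 984 CPM) and Pglyrp1 (a peptidoglycan recognition protein, 2997 CPM against 8.73 CPM). Of 10 protease inhibitor genes 9 were tested and higher, and Stfa1 had 0 UMIs. Anxa1 (annexin A1), which that list holds although it is not itself a protease inhibitor, was at 4506 CPM against 15.1 CPM.

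Receptors by which neutrophils sense their surroundings were higher for 14 of 16 genes. Csf3r, the receptor for granulocyte colony-stimulating factor, was at 717 CPM against 191 CPM, and the formyl peptide receptor gene Fpr2 at 385 CPM against 0.863 CPM. Clec4e, a receptor for mycobacterial glycolipid and dying cells, was at 835 CPM against 5.04 CPM. Fcgr3 and Tnfrsf1b passed neither limit. Of the 14 inflammatory mediators 9 were tested, and 4 were higher (Il1b, Il1rn, Cxcl2, Ccl6) and 4 lower (Il1a, Tnf, Ccl3, Ccl4). Cxcl2, a ligand of CXCR2, was at 6562 CPM against 119 CPM. Ccl4, a chemokine that microglia make in quantity, was at 814 CPM against 3752 CPM, and Il1a at 64.2 CPM against 884 CPM.

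Regulators were split. Of the 6 NF-kB feedback genes, Nfkbiz, Zfp36 and Dusp1 were lower and Nfkbia, Tnfaip3 and Ier3 passed neither limit. Among 8 tested myeloid transcription factors, the C/EBP genes Cebpb (2644 CPM against 629 CPM), Cebpd and Cebpe (9 UMIs, 96.3 CPM against 0.383 CPM) were higher. Cebpa, Klf2, Fos (1852 CPM against 10347 CPM) and Junb were lower, Spi1, which encodes PU.1, was at 578 CPM against 416 CPM, and Gfi1 had 0 UMIs. Of 6 tested interferon response genes 5 were higher, mostly the membrane proteins Ifitm1 (1830 CPM against 8.69 CPM), Ifitm2 and Ifitm3, whereas Ifit1, Ifit3 and Rsad2 had 0 UMIs. G0s2, Bcl2a1a and Bcl2a1b of the survival list were higher, Mcl1 passed neither limit and Bcl2a1d had 0 UMIs, with the caution that the Bcl2a1 copies are nearly identical. Of 5 tested cell cycle genes, Top2a (4 UMIs) and Hmgb2 were higher and Tubb5 and Pcna lower, and Mki67 had 0 UMIs. Hmgb2 was found in 39 members at 1948 CPM. Of the 6 ribosomal protein genes, Rpl13 and Rps18 were lower and 4 passed neither limit.

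RNA of other cell types made up little of the members' RNA, but was not lower than in the other barcodes for every type. The 10 microglial genes listed, 2 of which the rule used, were all lower, with 246 UMIs or 0.263% of member UMIs, beside 2.99% of the UMIs of the other barcodes. A single member with 11737 UMIs and 2684 genes carried 22 P2ry12 and Tmem119 UMIs, where all members together had 21 and 10 of these genes, and without it the list took 0.164%. Monocyte genes gave 105 UMIs, or 1124 CPM against 182 CPM in the other barcodes, and 3 of 5 tested were higher and none lower. Of these UMIs 53 were Ly6c2, a gene that was seen in 15 members, and 47 lay in the 4 members with none of the maturation genes. Ccr2 came only from 1 member of suffix 2 (7 UMIs, with 8 of Ly6c2), which had 4850 UMIs, 14 S100 UMIs and none of the 6 maturation genes. It had 0 UMIs of Cxcr2, Csf3r and Ly6g and 0.289% of its UMIs on S100a8 and S100a9. By these genes that member resembled a monocyte more than a neutrophil, and it stayed in because the rule chose it. Without it, 67 genes of the function lists were at least 2-fold higher in place of 70. Border macrophage, basophil and mast cell, lymphocyte and erythroid lists had 0 UMIs in the members. Of the remaining lists, natural killer genes gave 2 UMIs, dendritic cell genes 1, choroid plexus genes 6 and oligodendrocyte genes 4, all Mbp (42.8 CPM for the list against 9.79 CPM in the others). Eosinophil genes gave 2 UMIs, both Siglecf, with Epx, Prg2, Ear1 and Ccr3 at 0. Of the 6 granulocyte markers, S100a8 and S100a9 were set by the rule, and the 4 others, Ngp, Camp, Ltf and Retnlg, were at least 2-fold higher in the members. These 4 are genes of the neutrophil, whereas the eosinophil, basophil and mast cell genes were at or near 0. Ngp was seen in 20 of the 59 members, Camp in 16, Ltf in 12 and Retnlg in 25. The sums of these 4 genes therefore do not describe every member. The part of other cell types' RNA in the results was not tested.

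Maturation was read from 3 early genes (Ngp, Camp, Ltf) and 3 late genes (Retnlg, Mmp9, Il1b). Over all members Ngp was at 28344 CPM against 37.7 CPM in the others, Camp at 19064 CPM against 20.1 CPM and Ltf at 5266 CPM against 7.38 CPM. Retnlg was at 14536 CPM against 13.3 CPM, Mmp9 (gelatinase) at 460 CPM against 0.863 CPM and Il1b at 3982 CPM against 148 CPM. Early genes made 73.5% of the UMIs of the 6 genes, but this sum came from few deep barcodes. The early set had 0 UMIs in 39 of the 59 members. Ngp was found in 33.9% of the members and 0.222% of the other barcodes, and after thinning each barcode to 500 UMIs in 33.9% and 0.104%. Il1b, which microglia also transcribe, was found in 61.0% and 15.0%, and after thinning in 54.2% and 4.61%.

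Barcodes with at least 0.5 of these UMIs on the early genes were called early-leaning and the others late-leaning, a split of a range and not of cell types. Early-leaning barcodes numbered 11 (18.6%, 9.69 to 30.9%) and late-leaning barcodes 44 (74.6%, 61.6 to 85.0%), while 4 members had none of the 6 genes. Few lay between: the early share was above 90% in 9 members, from 10 to 90% in 4, and above 0 but under 10% in 7. Thinning to 500 UMIs kept the lean of all 59. The 11 early-leaning barcodes carried 9 distinct sequences, since 3 of them shared 1 sequence as described. They were deeper than the late-leaning ones, with medians of 2846 and 848.5 UMIs, and the part of depth in the split was not tested beyond the thinning.

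**Figure D2:**
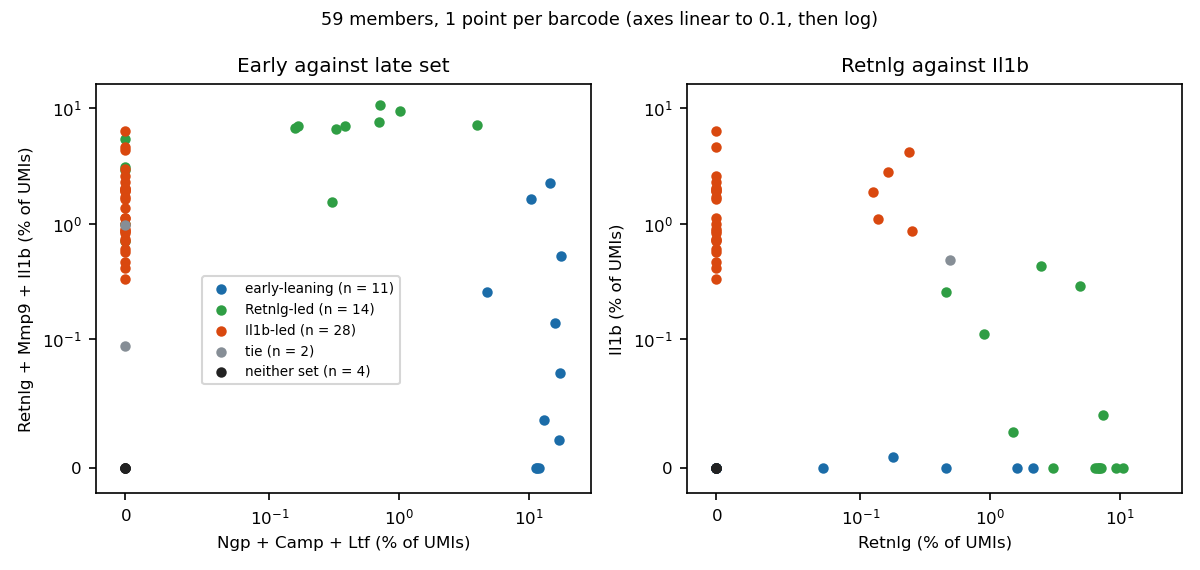
Maturation genes in the 59 members, 1 point per barcode, as percent of its UMIs: left, early set (x) against late set (y); right, Retnlg (x) against Il1b (y), on axes that are linear to 0.1% and logarithmic above, coloured by class. The 11 early-leaning barcodes lie at 4.74% or more on the left x axis, and the 28 Il1b-led barcodes lie at 0.

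In the early-leaning barcodes Ngp took 3.49 to 9.53% of all UMIs (median 7.68%), Camp 0.213 to 9.59% (median 5.66%) and Ltf 0.217 to 1.91% (median 1.07%). All 11 carried all 3 genes, whereas Il1b was seen in 1 of them, as a single UMI, and Retnlg in 5. Outside these 11, Ngp was seen in 9 members, none above 1.75% of UMIs, so that its ranges did not overlap. Those of Camp and Ltf did, reaching 1.40% and 0.830% in late-leaning barcodes. All 3 genes were used for the split. The 3 early genes ran together across the 59 members, with Spearman correlations of 0.91 for Ngp and Camp, 0.82 for Ngp and Ltf and 0.89 for Camp and Ltf. Lcn2, which the split did not use, followed Ngp at 0.84. The percent of early UMIs rose with depth (0.66) and had little relation to the percent of late UMIs (-0.06). In 39 of the 59 members the early set had 0 UMIs, so their ranks were tied. Correlations with the early genes therefore reflect in good part which members had any early RNA. The members share libraries and differ in depth, and the values describe them only.

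Genes outside the split also differed between the leans. Of 521 genes with at least 20 UMIs over both, 14.0% were at least 2-fold higher in the early-leaning barcodes and 34.0% at least 2-fold lower. Among the 10 highest, apart from Camp, Ltf and Ngp of the split, were Chil3, Cybb, Fcnb, Ptma, Serpinb1a and Cd81. Without the deepest barcode Cd81 was at 247 CPM in the early-leaning barcodes in place of 424 CPM. Chil3 (chitinase-like 3) was at 2842 CPM in the early-leaning and 21.7 CPM, 1 UMI, in the late-leaning barcodes, a ratio of 131 (23.1 to 5227). Its UMIs came in good part from the shared sequence, and without shared sequences it was at 1500 CPM in 8 early-leaning barcodes. Fcnb (ficolin B, a secondary granule lectin) had 21 UMIs against 0, a ratio of 8.06 with a floor of 3 UMIs. Without shared sequences it was at 255 CPM in place of 524 CPM. Ptma (prothymosin alpha, a gene of growing cells) was 7.10-fold higher (2.97 to 20.6). Of the secondary granule list, which holds the 3 early genes, 9 of 9 measured genes were higher.

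The 10 lowest were Il1b of the split, Cxcl2, Ifitm1, Ccl6, Ccrl2, Neat1, Asprv1, Cyp4f18, Srgn and Ier3. Cxcl2 had 2 UMIs in the early-leaning barcodes and was at 11935 CPM in the late-leaning ones (ratio 0.00418, 0.000505 to 0.0152). Srgn (serglycin, the proteoglycan core that packs granule proteins) was at 175 CPM against 4765 CPM and was seen in 42 of the 44 late-leaning barcodes. Cxcr2 had 0 UMIs in the early-leaning barcodes and 57 in the late-leaning ones. By list, 9 of 12 measured surface receptors and 6 of 7 inflammatory mediators, Il1b of the split among them, were lower in the early-leaning barcodes. So were 5 of 5 NF-kB feedback genes and 3 of 3 survival genes, and no measured gene of these lists was higher. S100a8 was at 170992 CPM and 91275 CPM and was present in every barcode of both. Microglial genes were also higher in the early-leaning barcodes (3 of 4 measured), where the list took 0.401% of UMIs beside 0.165% in the late-leaning ones. Without the deepest barcode the early-leaning ones gave 0.173%, close to the late-leaning value.

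The late-leaning barcodes were themselves divided. Retnlg was seen in 20 of these 44, Il1b in 35 and both in 12. Their shares of UMIs ran in opposite directions, with a Spearman correlation of -0.66 over the 44 and -0.37 over all 59 members. The value over the 44 is set in part by definition, since a late-leaning barcode without Retnlg nearly always has to carry Il1b. Nothing further is read from it. The contrast of Retnlg and Il1b was noticed in the data, and the barcodes were then split by which of the 2 genes had more UMIs. Retnlg led in 14 and Il1b in 28, with 2 ties. After thinning to 500 UMIs the class was the same for 58 of the 59 members. In the Retnlg-led barcodes Retnlg took 0.453 to 10.5% of UMIs (median 6.49%) and Il1b at most 0.431%. In the Il1b-led barcodes Il1b took 0.333 to 6.40% (median 1.11%) and Retnlg at most 0.249%. Mmp9, placed in the late set with both, was seen in 8 of 14 Retnlg-led and 2 of 28 Il1b-led barcodes, and in 7 of 11 early-leaning ones.

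Retnlg-led barcodes held more granule RNA than Il1b-led barcodes. The Il1b-led ones still had 49 UMIs of the tertiary granule list, with Hp in 13 of 28, and 9 Lcn2 UMIs. Of 292 genes with at least 20 UMIs over both, 15.8% were at least 2-fold higher in the Retnlg-led barcodes and 35.6% at least 2-fold lower. The highest were Retnlg itself, Mmp8, Ngp, BC100530, Ifitm6, Lyz2, Camp, Wfdc21, Lcn2 and Ly6g. Mmp8 was at 2548 CPM against 46.9 CPM, 1 UMI (ratio 54.4, 9.38 to 2183), and Lyz2 at 10320 CPM against 797 CPM (interval of the ratio 7.92 to 22.6). Ngp, Camp and Ltf had 0 UMIs in all 28 Il1b-led barcodes, against which Ngp was at least 32.2-fold and Camp at least 12.9-fold higher in the Retnlg-led ones, with a floor of 3 UMIs over the class. A single Retnlg-led barcode of suffix 5, with an early share of 35.7%, held 40 of the 105 Ngp, 32 of the 42 Camp and all 19 Ltf UMIs of its class. Without it the ratios at that floor were 22.2 for Ngp and 3.41 for Camp, which had 10 UMIs in 4 barcodes, and Ltf had 0 UMIs in both classes. Ly6g had 33 UMIs in 7 of the 14 Retnlg-led barcodes and 0 in the 28 Il1b-led ones. After thinning it remained in 3 and 0. At this depth a barcode without a UMI cannot be said to lack the gene.

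The lowest in the Retnlg-led barcodes were Ccl4, Socs3, Fgl2, Atp6ap2, Marcks, Ier3, Ccrl2, Csrnp1, Il1b and Marcksl1. Ccrl2, a chemerin-binding receptor, was at 216 CPM against 4124 CPM in the Il1b-led barcodes (ratio 0.0523, 0.0166 to 0.127). Socs3, a brake on cytokine signalling, was at 173 CPM against 1593 CPM. Fgl2, a prothrombinase and secreted immune regulator, had 0 UMIs against 27. Marcks, Ccl4 and Fgl2 are also transcribed by microglia, whose 10 listed genes took 907 CPM in the Retnlg-led and 2343 CPM in the Il1b-led barcodes, and their part was not tested. Cxcl2 was seen in 9 of 14 Retnlg-led and 21 of 28 Il1b-led barcodes, at 5181 and 19215 CPM.

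**Figure D3:**
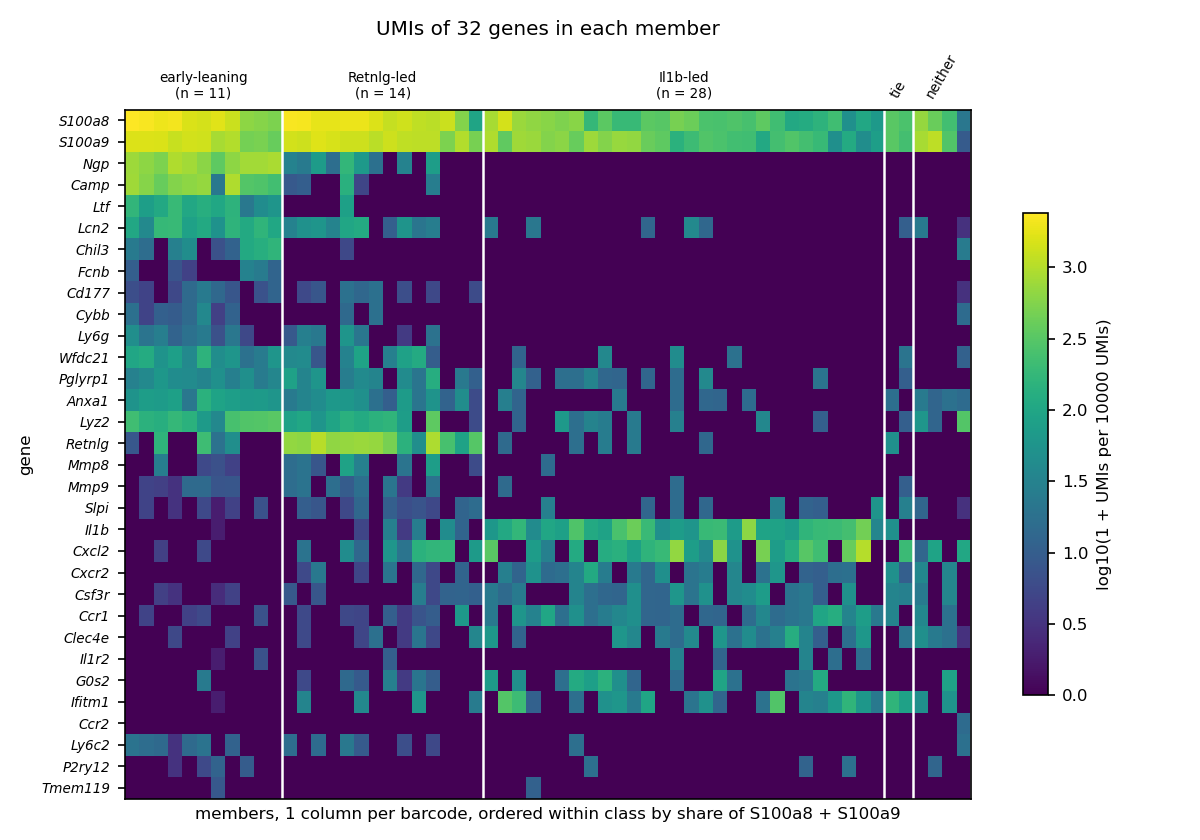
UMIs of 32 genes (rows) in each of the 59 members (columns), as log10 of UMIs scaled to the same total in each barcode, with white lines between classes. S100a8 and S100a9 fill all columns, Ngp, Camp and Ltf fill the 11 early-leaning columns and are empty in the 28 Il1b-led columns, and Retnlg fills the 14 Retnlg-led columns.

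Across the lists, the 3 classes formed an order for some functions. Summed secondary granule RNA was at 136115 CPM (132529 to 139775) in the early-leaning, 14680 CPM (13161 to 16327) in the Retnlg-led and 422 CPM (193 to 801) in the Il1b-led barcodes. That list holds Ngp, Camp and Ltf of the split, and without these 3 genes it was at 17575, 7513 and 422 CPM. The tertiary granule list peaked in the Retnlg-led barcodes, at 59629 CPM beside 7279 and 2296 CPM. It holds Retnlg and Mmp9 of the split and was at 3490, 6261 and 1875 CPM without them. Mmp8 gave 2548 CPM of the Retnlg-led value. The inflammatory mediators, a list that holds Il1b, ran the other way, at 1172, 8506 and 41758 CPM, and at 1147, 7902 and 25168 CPM without Il1b. NADPH oxidase, protease inhibitor and cell cycle genes were lowest in the Il1b-led barcodes. For the cell cycle list this was the order of Hmgb2, which gave 94 of 116, 53 of 53 and 27 of 29 UMIs in the 3 classes. The order of the mediators also held for 5 lists without any gene of the split. Of the 5, surface receptors were at 3141, 7254 and 16825 CPM, NF-kB feedback genes at 2019, 3756 and 14482 CPM, and interferon response genes at 3889, 6520 and 12701 CPM. For the interferon list this was the order of Ifitm1 and Ifitm2, while Ifitm3 ran the other way with all barcodes included. Survival genes were at 274, 1036 and 4921 CPM and myeloid transcription factors at 6507, 8161 and 21043 CPM. The deepest barcode gave much of some early-leaning sums, which without it were 529 CPM for the mediators, 1762 CPM for the interferon response genes and 3524 CPM for the transcription factors. S100 genes were at 288959 and 275777 CPM in the early-leaning and Retnlg-led barcodes and at 84032 CPM in the Il1b-led ones. The intervals cover only counting error, and the classes differ in depth, with medians of 2846, 1475.5 and 714.5 UMIs.

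**Figure D4:**
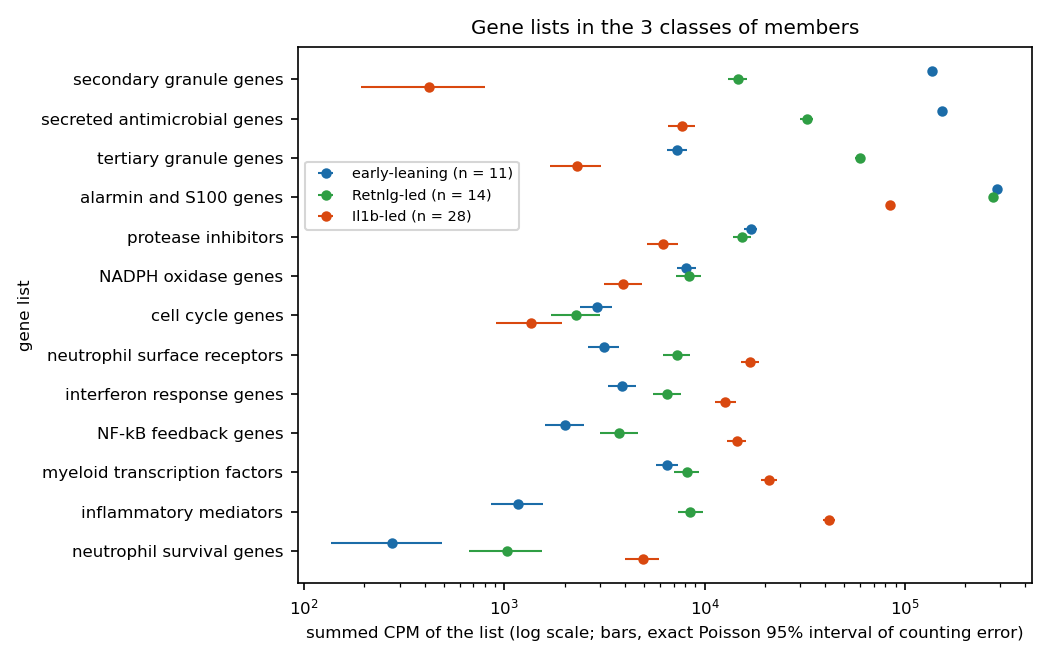
Summed CPM of 13 gene lists (x, log scale) in the early-leaning, Retnlg-led and Il1b-led members, with exact Poisson 95% intervals. Secondary granule genes, 3 of them used for the split, fall from 136115 to 422 CPM across the classes while inflammatory mediators run from 1172 to 41758 CPM.

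The classes were spread unevenly over the suffixes. Early-leaning barcodes numbered 2, 2, 3, 0, 0 and 4 in suffixes 1 to 6, Retnlg-led ones 1, 7, 0, 1, 3 and 2, and Il1b-led ones 0, 6, 1, 10, 1 and 10. Suffix 4 had 14 members of which none was early-leaning, with Ngp at 894 CPM, Camp and Ltf at 0 UMIs and Il1b at 14490 CPM. Suffix 6 had 17 members and held both ends, with Ngp at 30949 CPM and Il1b at 5267 CPM, and suffix 2 had Ngp at 21686 CPM and Il1b at 2355 CPM. Suffixes 1, 3 and 5, with 3 or 4 members each, give little precision. Retnlg ranged from 5214 CPM in suffix 3 to 59971 CPM in suffix 5. These differences between libraries were not assigned to a tumour group, and their relation to the tumour groups was not tested.

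**Figure D5:**
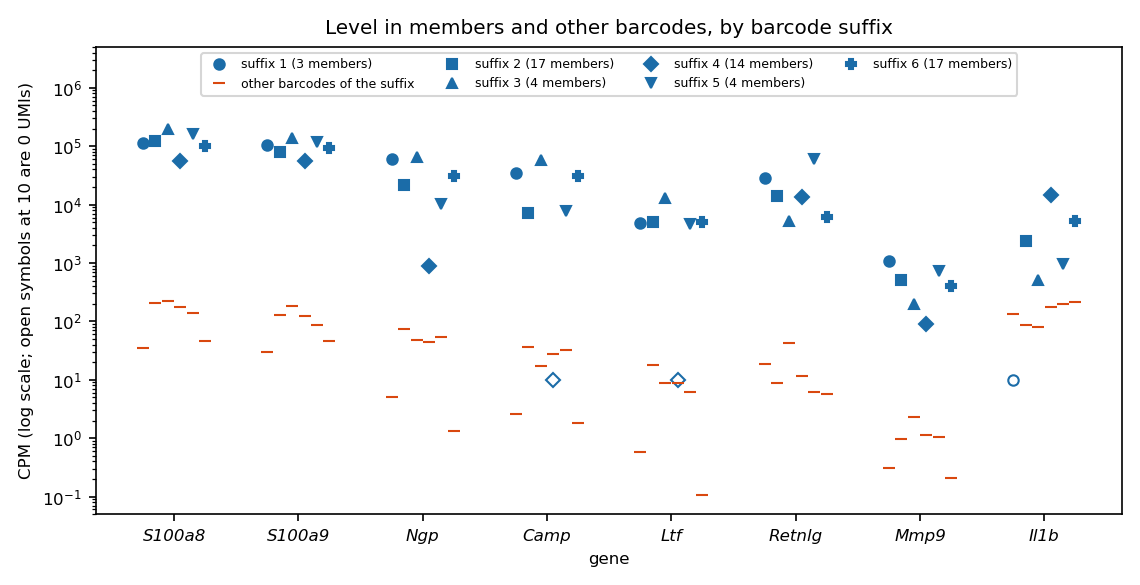
CPM (y, log scale) of 8 genes in the members of each barcode suffix (blue symbols, open where 0 UMIs) and in the other barcodes of the same suffix (orange dashes). Camp and Ltf are open in suffix 4 and Il1b in suffix 1, and S100a8 lies between 56172 and 198436 CPM in the members.

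The high-microglial barcodes resembled the members in their granulocyte genes but not in their share. They held Ngp at 7642 CPM, Retnlg at 2591 CPM and Il1b at 1242 CPM, and the 10 microglial genes took 2.06% of their UMIs. By the same split 17 of the 76 were early-leaning, 10 Retnlg-led and 46 Il1b-led. Other barcodes also carry Il1b, at 148 CPM, so the last count cannot be set against that of the members. They lay in every suffix, 5, 16, 4, 26, 7 and 18 in order. Their median of 5626.5 UMIs was above that of the members and of the other barcodes, and whether they were pairs of cells was not tested.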

How the data were processed

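Immune cells from 6 mice were profiled by single-cell RNA sequencing. The authors deposited 1 filtered matrix of UMI counts over 31053 genes, written by Cell Ranger (version 3.1.0 in the matrix header), and the submitters' processing notes name Cell Ranger 3.1 and Seurat 3.1.5 and the mouse build mm10. Neither the labels nor the deposited files tie a barcode suffix to a sample, and groups were taken from the labels alone, so the deposited counts were treated as 1 pooled sample. No column of another sample was left out (0). Members and gene lists were chosen with earlier results of these data known.

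Barcodes with over 200 genes and under 5% mitochondrial UMIs were kept (98.1%). Counts were summed over barcodes and scaled to CPM, ratios were taken for genes of at least 25 CPM on average, and 2-fold was the limit. A group at 0 was set to 3 counts for a ratio. Intervals are exact Poisson for sums and ratios and exact binomial (Clopper-Pearson) for shares, at 95%. Genes named are the markers given, the 6 maturation genes, the 20 highest and 10 lowest ratios with the same direction in each suffix of 10 or more members (at least 200 CPM in members, or in other barcodes for the lowest), 10 highest and 10 lowest between leans, and the genes of 30 lists. Some genes that this rule names are not reported here. The split of late-leaning members by Retnlg and Il1b, the genes named from it, and Cd3d and Ifitm6 were chosen after their values were seen. No doublet caller was run, the microglial limit and an alternative of at most 2500 genes being used in its place. Gene positions are from GENCODE vM21 (30934 of 31053 genes matched). On simulated data for members against other barcodes, with 200 of 1343 genes changed, 100% of 4-fold increases and 99.0% of 4-fold decreases were called, 8.39% of unchanged genes were called, and 96.2% of intervals held the true ratio. The simulated barcodes of a group shared a common profile, their depths were drawn from all barcodes, and the other barcodes were fewer than in the data. Real members were shallower and differed from each other, so the simulation covers counting error only. Python 3.11.15, numpy 2.4.6, scipy 1.17.1, pandas 2.3.3 and matplotlib 3.10.9 were used.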

Additional observations from a re-analysis of the deposited data

Results flagged for a closer look

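Outside the barcodes compared, 4 barcodes failed the mitochondrial limit and met both other limits of the rule. Their lowest mitochondrial shares were 5.01, 6.54 and 7.35%, and none (0) had a UMI of Ngp, Camp or Ltf. They are flagged because a granulocyte signal appears in data that the comparisons leave out. No test was run on them.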

How the results depend on the processing

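The 20 highest and 10 lowest genes kept their direction under the alternatives run. With no microglial limit, however, 7 of the 10 lowest fell short of 2-fold. Their ratios were 0.741 (Abhd12), 0.736 (Adap2), 0.694 (Daglb), 0.654 (Fcrls), 0.608 (Siglech), 0.597 (Fgd2) and 0.538 (Rgs1). Other orders turned. More genes were higher than lower after thinning and with no microglial limit. Without the deepest barcode, Ifitm3 was no longer highest in the early-leaning barcodes. The microglial list was then at 1727 CPM there, below the 2343 CPM of the Il1b-led ones. With no microglial limit there were 135 members (0.341% of barcodes), 28 early-leaning, 102 late-leaning, 24 Retnlg-led and 74 Il1b-led, 289 genes higher and 154 lower, and the microglial list took 1.78% of UMIs. With a limit of 5% the share was 0.199%, the list took 0.974% and 20 members were early-leaning, and with 1% the list took 0.105% and 7 were early-leaning. At most 2500 genes, or leaving out the deepest barcode, gave 0.164% for the list. Thinning to 500 UMIs gave 1048 genes higher and 680 lower. A minimum of 10 CPM gave 1174 genes higher, 100 CPM gave 344 higher and 420 lower, and a fold of 4 gave 419 and 684. Without sequences found in 2 or more suffixes the share was 0.207% and the list took 0.228%. Alternatives that leave out a barcode, shared sequences or the genes of the split were chosen after seeing the data. With 1 suffix omitted at a time there were 18 to 28 Il1b-led, 7 to 14 Retnlg-led and 7 to 11 early-leaning members, 50 to 72 high-microglial barcodes and the list took 0.194 to 0.284%, with suffixes 2, 4 and 6, which hold most members, giving the lowest values. The ratios of single genes moved with the choice of background: against barcodes under the S100 limit, Ngp was 47466-fold higher in place of 751-fold. The causes were not tested. No paired analysis was possible because no suffix carries a replicate number from the labels and no test was made.

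Depth limits these data: a median of 878 UMIs per member, 1 UMI being 10.7 CPM over all members, and 0 UMIs allowing up to 39.5 CPM. There are 59 barcodes, 3 of which share 1 sequence, and spread between animals of a group was not analysed here.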

Other observations

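Cd3d, a T cell receptor component, had 19 UMIs in 11 of the 59 members (203 CPM against 0.920 CPM in the other barcodes) and was seen in all 6 suffixes, in 7 of the 11 early-leaning barcodes. Cd3e, Cd3g and Trbc2 had 0 UMIs in the members, each of which allows up to 39.5 CPM. The gene was named after its values were seen.

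Ifitm6, an interferon-induced membrane protein gene, was at 4014 CPM in the early-leaning, 2116 CPM in the Retnlg-led and 141 CPM in the Il1b-led barcodes. Ifitm1 ran the opposite way, at 24.9, 1295 and 5343 CPM, so that members of 1 gene family differed in direction across the classes. Ifitm2 was at 922, 2850 and 5108 CPM. Ifitm3 was at 2717, 2029 and 1406 CPM, but most of its early-leaning UMIs came from the deepest barcode. Without that barcode the early-leaning values were 1233 CPM for Ifitm3, which was then below the other classes, 423 CPM for Ifitm2, 3736 CPM for Ifitm6 and 0 UMIs for Ifitm1.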
